A study of Mus musculus with 3 samples.

Results

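A piRNA cluster of chromosome 6 was taken as all listed sequences of the series that start between 127720001 and 127780000 of chromosome 6 on mm9, a stretch of 60 kb. The rule found 18350 of the 2219118 distinct sequences, which is 0.827% of the list and 15.0% of the sequences on chromosome 6. The locus was chosen by its number of sequences and its mix of strands in this same list, so its size and its strand share are descriptions and were not tested. The series sequenced small RNAs bound to Tdrd1 or Mili in testes of C57BL/6 mice, as 3 immunoprecipitates with 1 library each. They were Tdrd1 complexes of adult testis, Mili complexes of Tdrd1 knockout testis at 15 dpp (days after birth), and Mili complexes of wild-type adult testis. The knockout and the wild type thus differed in age as well as in genotype. RNAs of about 28 to 30 nt were cut from a gel, per the labels. The deposited list pools the 3 libraries with no read number and no library, so the precipitates could not be compared with each other. Every value below counts distinct sequences of the pool, and the depth behind them is unknown.

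piRNAs are small RNAs that guide Piwi proteins in animal germ cells, and Mili (gene Piwil2) is the mouse Piwi protein that binds those of about 24 to 28 nt. Tdrd1 has Tudor domains, which bind methylated arginines of Mili. Long single-stranded transcripts of piRNA clusters are cut into primary piRNAs, which tend to start with U, and their 3′ ends are then trimmed. In the ping-pong cycle a piRNA guides the cut of an opposite-strand transcript 10 nt from its own 5′ end, so that the new piRNA overlaps the old one by 10 nt and carries A at position 10 opposite a first U. In the testis many clusters are read at the meiotic stage from a shared start in opposite directions.

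Sequences of 3 kinds carry the results below. They are written 5′ to 3′ as DNA, with T for U, and positions are 1-based on mm9, chromosome 6. The first set gives, for each strand, the longest sequence at the 5′ ends with most distinct sequences, with the first base in capitals. 
Plus strand, 127767767 to 127767796: Tggatgtgagatagataggagaaggaagtc
Plus strand, 127748019 to 127748047: Tgaaacgagacttaagaggcttcagggag
Minus strand, 127737173 to 127737203: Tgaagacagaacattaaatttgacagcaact
Minus strand, 127736327 to 127736357: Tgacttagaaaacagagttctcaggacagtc
The second set gives the opposite-strand pairs with most sequences at a 10-nt overlap of 5′ ends, with the 10 overlapping bases in capitals. 
Pair 1 plus, 127747106 to 127747134: ATCTGTAAAAtggggatagtattgggtaa
Pair 1 minus, 127747089 to 127747115: TTTTACAGATtgaggagactgaggttt
Pair 2 plus, 127747109 to 127747138: TGTAAAATGGggatagtattgggtaaagca
Pair 2 minus, 127747090 to 127747118: CCATTTTACAgattgaggagactgaggtt
Pair 3 plus, 127747234 to 127747262: TAACTACATCattgcctatagtcagcaag
Pair 3 minus, 127747215 to 127747243: GATGTAGTTAggagttgtggagaggaaga
The third is the plus-strand sequence of the place where the strand of the cluster turned, joined from overlapping listed sequences, with the 25 bases from the turning point onwards in capitals. 
Turning point, 127746136 to 127746435: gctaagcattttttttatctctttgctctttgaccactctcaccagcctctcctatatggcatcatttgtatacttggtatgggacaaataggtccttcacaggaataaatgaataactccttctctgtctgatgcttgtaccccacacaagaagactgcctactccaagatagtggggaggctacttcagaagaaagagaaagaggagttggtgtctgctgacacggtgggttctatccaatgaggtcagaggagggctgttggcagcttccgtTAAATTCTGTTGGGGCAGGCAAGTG

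The strands of the cluster were separated and not mixed, against its label. The list gives no strand, so it was inferred from the bases that overlapping sequences share, which gave a strand to 18203 members (99.2%), of which 69.0% lay on the plus strand (95% exact Clopper-Pearson interval 68.4 to 69.7%). A single turning point at 127746411 divided the cluster into a minus-strand arm on the left with 5561 sequences and a plus-strand arm on the right with 12546. Only 96 sequences (0.527%) lay on the other strand of their side. Of the 56 bins of 1 kb with a strand call, 55 had at least 95% of their sequences on 1 strand, and the exception was the bin that holds the turning point, with 278 plus and 154 minus sequences. The cluster thus had 2 arms that run away from each other. The rightmost 5′ end of the minus arm lay at 127746420 and the leftmost of the plus arm at 127746411. These ends are also among the opposite-strand pairs counted below. The turning point was placed to leave fewest sequences on the other strand of their side. Where the arms meet follows largely from that rule, and a gap or overlap between them was not tested.

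**Figure D1:**
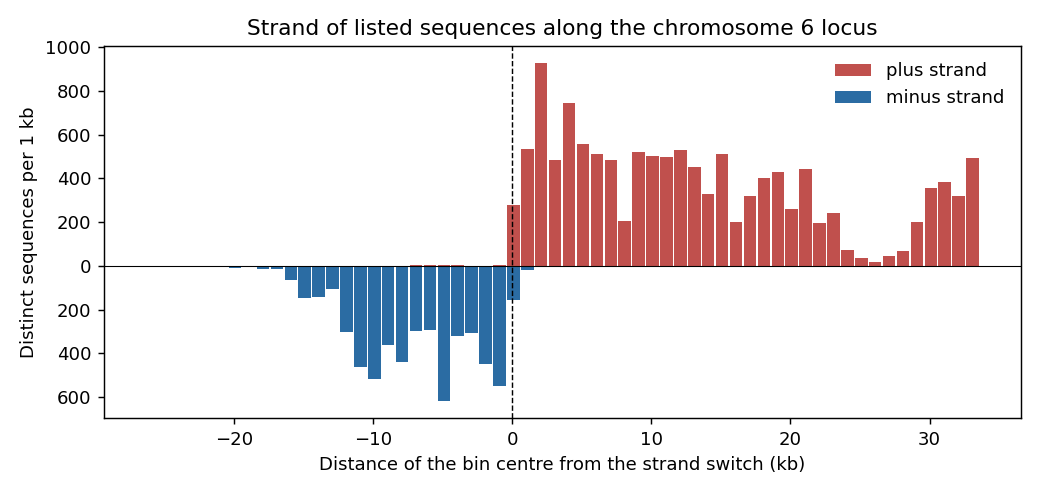
Distinct sequences per 1 kb by distance from the turning point at 127746411 (dashed line), with plus-strand sequences drawn upwards and minus-strand sequences downwards. The minus arm holds 5561 sequences and the plus arm 12546, and the tallest bin holds 928 plus-strand sequences.

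The arms differed in reach and in number. The richest bins of the plus arm were 127748001 to 127749000 with 928 plus-strand sequences, 127750001 to 127751000 with 745 and 127751001 to 127752000 with 555, all within 6 kb of the turning point. Those of the minus arm were 127741001 to 127742000 with 619 minus-strand sequences, 127745001 to 127746000 with 548 and 127736001 to 127737000 with 515. The minus arm thinned out to the left, where the outermost 5 kb of the locus held 15 sequences and the next 5 kb beyond it held 0. The plus arm had a thin stretch of 265 sequences between 127770001 and 127775000, with 21 to 77 per kb, and then rose again to 497 in the last 1 kb. The right border cuts the plus arm: the last 5 kb inside held 1767 sequences and the first 5 kb outside 1635.

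The members could be joined into 421 uninterrupted stretches covering 38089 positions, with a median of 59 bases and a longest stretch of 615. At 0 of these positions did 2 sequences disagree on the base. The strand was itself called from bases shared at the same position, so this agreement largely follows from the call and is not a check of it. The plus strand was covered at 25547 positions, the minus strand at 14160 and both strands at 1618, which is 4.25% of all covered positions. Up to 100 distinct sequences lay over 1 position. Among the joined bases, 3 of 30087 exact stretches of 20 nt occurred more than once and 0 occurred inverted. The joined bases cover 63.4% of the locus, and copies that differ in sequence or lie outside them were not counted. In the rest of the list 151 of 2200747 sequences shared a stretch of 20 nt with the locus. The sources used here do not give how the authors treated sequences with several genome positions, so repeats in the locus could not be assessed.

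The sequence at the turning point was searched for AACTG, which reads CAGTT on the opposite strand, and for AACGG, which reads CCGTT there, as cores bound by Myb factors, since the Myb factor Mybl1 is known to drive many meiotic piRNA clusters. AACGG was added after the sequence had been seen. AACTG was found 0 times in the 300 bases printed above. AACGG was found 1 time, on the minus strand at 127746407 to 127746411, so that it ends on the first base in capitals, the turning point itself. Of 32851 RefSeq promoters of the same length (GRCm38.p6), 44.8% hold AACTG, 17.4% hold AACGG and 55.1% hold at least 1 of the cores. A match of 5 letters is a description and not a binding site. The window had 46% G and C, close to the 45.8% of all joined bases of the locus.

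Genes annotated at the locus were matched by sequence, because the annotation (GENCODE vM21) describes GRCm38. A whole-length match to an exon was found for 1336 members (7.28%, 6.91 to 7.67%), but only 78 of them (0.425%) matched in the sense direction. Of the matched sequences with a strand, 1320 of 1320 had the strand that the match implies. Gm42811, an entry of GENCODE's TEC class of unproven transcripts annotated on the minus strand, accounted for 1257 antisense and 6 sense matches. These lie between 127757978 and 127760658, 11.6 to 14.2 kb into the plus arm, at 471 sequences per kb and 559 distinct 5′ ends. The plus arm therefore ran through Gm42811 on its opposite strand, and 59.4% of the 1191 sequences of 24 to 32 nt there started with U. In the minus arm 4921513H07Rik, also of the TEC class and on the minus strand, had 22 sense sequences and Gm42741 had 12, at the thin outer end. Gm42741 falls under the minimum of 20 for a named gene and was added after its value was seen. In the GRCm38 annotation the protein-coding neighbours are Prmt8 on the side of the minus arm and Tspan11 on the side of the plus arm, and 0 members matched an exon of either. RefSeq also lists the non-coding genes Gm40402 and Gm38902 between them, which were not analysed here.

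The microRNA gene Mir7233 lies in the minus arm, at 127738102 to 127738161 by match of its RefSeq hairpin. It is annotated on the strand of that arm. A total of 103 members overlapped its 60-nt hairpin, from 30 different 5′ ends and with 19 to 30 nt, and 38 of them, all on the minus strand, lay wholly inside from 12 different 5′ ends. A microRNA is normally cut at fixed ends. Only 1 member began at the 5′ end of the mature form, which has 22 nt, and 0 equalled it. The libraries held RNAs bound to Tdrd1 or Mili and cut by size from a gel, and 0.427% of the whole list had 22 nt. A mature microRNA could thus be missing from the list whatever the hairpin yields, so processing of the hairpin was not tested. The richest 5′ end over the hairpin, with 9 sequences, started outside it. The mature RefSeq sequence (GRCm38.p6, seed in capitals) and the longest member at that 5′ end, which overlaps the other end of the hairpin, are set side by side.
mmu-miR-7233-3p, minus strand: uAUUGUCUgccuuuaggucuac
Member over Mir7233, minus strand, 127738139 to 127738168: tagcagaagttagggacagatagatggcaa

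The members had the length of Mili-bound piRNAs in each arm. Their mean length was 26.3 ± 1.81 nt (SD over 18350 sequences), with 26.3 ± 1.80 nt in the minus arm and 26.3 ± 1.82 nt in the plus arm. Lengths of 24 to 28 nt made up 84.1% of the locus (83.6 to 84.7%) and 29 to 32 nt 9.57%. In the whole list the mean was 27.1 ± 1.69 nt, and these ranges held 78.2% and 19.9%. The other rich windows of the list, defined as the 97 windows outside the locus among the 100 of 20 kb with most sequences, lay close to the locus, with 26.4 ± 1.85 nt. Sequences are not independent replicates, since neighbours come from the same transcript, so intervals cover counting error only and no test was made between the locus and other places.

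**Figure D2:**
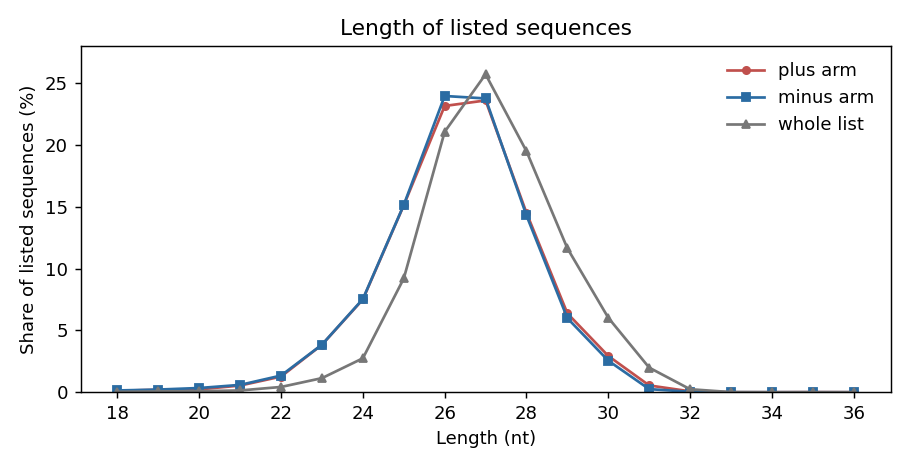
Share of listed sequences (%) by length (nt) in the plus arm, the minus arm and the whole list. The arms run together with most sequences at 26 and 27 nt, and the whole list lies further right with a mean of 27.1 nt, against 26.3 nt in the locus.

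U was the main first base of each arm. Of 17195 members of 24 to 32 nt, 59.1% started with U (58.4 to 59.9%), with 61.7% in the minus arm (60.4 to 63.1%) and 58.0% in the plus arm (57.1 to 58.9%). At position 2 the share of U was 21.5% in the minus arm and 19.6% in the plus arm. Among the joined bases of each arm, read in its direction, U made up 26.6% in the minus arm and 26.8% in the plus arm. The share was lower than the 68.7% of the whole list but near the 60.2% of the other rich windows. With each 5′ end counted once it fell to 50.2% in the locus, against 51.3% in the other rich windows.

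The share of U depended on length in a way that the other rich windows shared. It was 64.0% at 23 nt (60.3 to 67.5%), lowest at 26 nt with 54.7% (53.2 to 56.2%), and reached 79.3% at 30 nt (75.5 to 82.7%). The other rich windows had 63.5% at 23 nt, 55.8% at 26 nt and 79.3% at 30 nt. Along the locus the share ranged from 45.9 to 80.8% over the 47 bins of 1 kb with at least 50 sequences of that size, with a median of 60.7%. The lowest value belonged to the richest bin of all, 127748001 to 127749000, and across bins a higher number of sequences went with a lower share of U (Spearman's rho -0.49 over 47 bins of 1 pooled list, a description).

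A 5′ end listed with many 3′ ends started with U far more often than a 5′ end listed once. The 18203 members with a strand came from 8171 different 5′ ends, 10.7% of which had 5 or more sequences (871 ends), as did 10.6% in the other rich windows and 3.603% in the whole list. In the minus arm 41.0% of 5′ ends with a single sequence started with U (38.3 to 43.7%), 57.5% of those with 2 to 4 and 87.0% of those with 5 or more (82.1 to 91.0%). In the plus arm these shares were 38.1%, 55.2% and 72.9% (69.3 to 76.4%). For 5′ ends with 5 or more sequences the intervals of the arms did not overlap. The 5′ ends of an arm are not independent replicates, so these intervals cover counting error only. The difference between the arms was not tested.

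**Figure D3:**
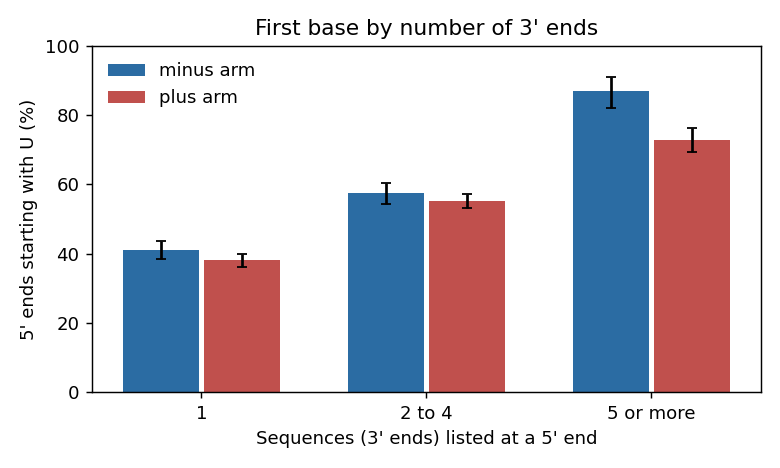
Share of 5′ ends that start with U (%) by the number of sequences, that is of 3′ ends, listed there, for the minus and the plus arm; error bars are exact 95% intervals. The share climbs to 87.0% in the minus arm and 72.9% in the plus arm at 5′ ends with 5 or more sequences.

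The 5′ ends with most sequences show how far 3′ ends varied. The plus-strand end at 127767767, printed first above, had 13 sequences of 18 to 30 nt, that is every length in that range. The other plus-strand ends named by the same rule, at 127748019, 127748052, 127748721 and 127748999, had 10 each. On the minus strand the end at 127737203 had 10 sequences of 20 to 31 nt, and those at 127736357, 127736443, 127738168 and 127741605 had 9 each. All 10 of these ends started with U, and 4 of the plus-strand ones lay between 1608 and 2588 nt from the turning point.

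Listed 5′ ends were not more frequent directly after a 3′ end than a few bases farther on. In head-to-tail production of piRNAs the next one starts at the base after the cut that ends the last. Of 10724 distinct 3′ ends in the locus, 2100 had a listed 5′ end of the same strand at the next base, against a mean of 2103 for distances of 2 to 10 nt, whose values ran from 2072 to 2161. The ratio was 1.01 in the minus arm and 0.996 in the plus arm. The base after a 3′ end was U in 24.7% of cases in the minus arm and 24.6% in the plus arm, below its share among the joined bases of the arms. Because 3′ ends are trimmed after the cut, listed 3′ ends need not mark the cut itself.

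The few sequences that ran against their arm carried A at position 10 more often, and a first U less often, than those that ran along it. Of the 96, 73 lay on the minus strand inside the plus arm and 23 on the plus strand inside the minus arm, and 88 measured 24 to 32 nt. A stood at position 10 in 71.6% of these 88 (61.0 to 80.7%), against 32.8% of the 16967 sequences that ran along the arms (32.1 to 33.5%). The neighbouring positions 9 and 11 had 17.05% and 22.7% A in the sequences against the arm. U was their first base in 39.8% (29.5 to 50.8%), against 59.2% along the arms. They were also thinly represented, with 1.17 sequences per 5′ end and at most 4, where the minus arm had 2.13 and the plus arm 2.29. In the locus as a whole A at position 10 did not stand out, with 33.0% beside 31.2% at position 9 and 32.8% at position 11.

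**Figure D4:**
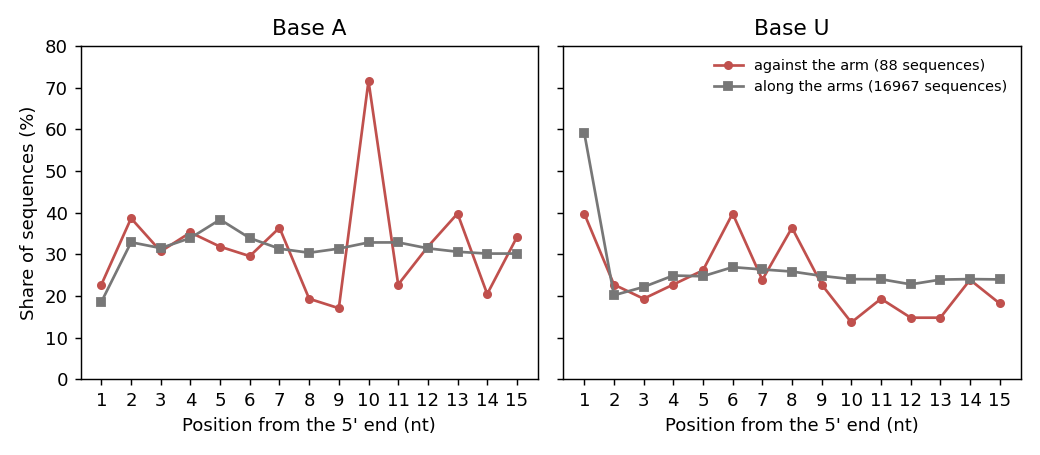
Share of A (left) and U (right) in % at positions 1 to 15 from the 5′ end, for the 88 sequences of 24 to 32 nt that run against their arm and the 16967 that run along it. A at position 10 stands at 71.6% in the first set and 32.8% in the second, and U at position 1 at 39.8% and 59.2%.

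Sequences against the arm had a partner at an overlap of 10 nt more often than at any other overlap counted. Of the 88 sequences against the arm, 50 (56.8%, 45.8 to 67.3%) had a sequence of the arm whose 5′ end overlapped theirs by 10 nt. At the 19 other overlaps from 1 to 20 nt between 10 and 33 of the 88 had one, with a mean of 22.0 ± 6.91 (SD). Seen from the arms, 150 of 16967 sequences (0.884%) had such a partner. Of these 150, 78.7% started with U (71.2 to 84.9%), against 58.98% of those without one (58.2 to 59.7%). Many of the 150 share a 5′ end and so a first base, which makes the first interval too narrow. 5′ ends with more sequences also started with U more often, as given above. A first U in the partner forces A at position 10, so base and overlap are not independent signs. Among the 38 sequences against the arm that had no listed partner, 26 (68.4%, 51.3 to 82.5%) nevertheless carried A at position 10.

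Counted as pairs of sequences, 173 pairs overlapped by 10 nt, against 51.8 ± 17.3 (SD) on average at the remaining overlaps, whose highest value was 83. The ratio was 3.34. They came from 46 positions, 34 of them right and 12 left of the turning point. Of the 46, 13 lay within 1 kb of it, as do the pairs printed above. There, sequences against the arm cannot be told apart from those of an arm that starts beyond the turning point. With each 5′ end counted once the ratio was 2.35, with 46 pairs against 19.6 ± 5.87. In 32 of the 46 positions 1 partner started with U, in 9 both did and in 5 neither did. With each 5′ end counted once, 50.3% of ends along the arms and 41.6% of those against them started with U. The same count at other overlaps is not given here, so these numbers are a description. The pairs printed above had 12 sequence pairs each and lie 0.695 to 0.823 kb right of the turning point. Pairs 1 and 2 are 3 nt apart and share most of their bases, so they are not separate sites. In pair 1 the sequence against the arm starts with U and its partner with A. In pairs 2 and 3 the arm sequence starts with U, and the sequence against the arm has A at position 10.

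**Figure D5:**
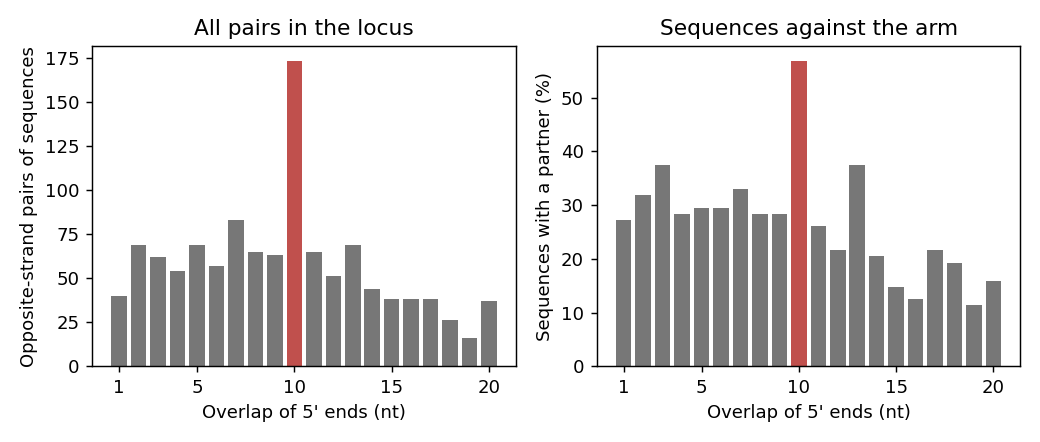
Left, number of opposite-strand pairs of sequences in the locus at each overlap of 5′ ends from 1 to 20 nt; right, share (%) of the 88 sequences against the arm with an arm sequence at that overlap. An overlap of 10 nt (red) has 173 pairs and 56.8% of sequences, the tallest bar in each panel.

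Sequences against the arm were most frequent next to the turning point. In the plus arm they made up 5.77% of sequences of 24 to 32 nt within 1 kb (30 of 520), 0.654% from 1 to 2 kb and 0.0698% beyond 20 kb (2 of 2865). In the minus arm they made up 1.62% within 1 kb (8 of 493), 0.802% from 1 to 2 kb and 0.0709% from 10 to 20 kb (1 of 1410). Within 1 kb, sequences of an arm that starts beyond the turning point cannot be told apart from sequences against the arm. A at position 10 was found in 60.5% of the 38 within 1 kb (43.4 to 76.0%) and in 80% of the 50 farther away (66.3 to 90.0%), and a 10-nt partner in 44.7% and 66%.

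The other rich windows of mixed strand had the same layout. Windows of 20 kb among the 100 richest with 25 to 75% plus-strand sequences were found on chromosomes 5, 7, 15, 17 and 18, besides the central window of the locus at 127740001 to 127760000. In each of the 6 a single turning point, with minus on the left and plus on the right, left between 0.531% (chromosome 15) and 0.891% (chromosome 6) of sequences on the other strand of their side. From 18 to 19 of the 20 bins in each held at least 95% on 1 strand. The central window had 163 pairs at 10 nt, against 36 to 97 in the other 5, and a ratio of 3.25, inside their range of 2.33 to 3.51. With 10021 sequences it was also the richest of the 6, and pair numbers depend on the number of sequences.

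To set the locus beside others, a sequence was called counter to its surroundings where at least 95% of the sequences within 1 kb, and at least 50 of them, lay on the opposite strand. By that definition the locus had 50 such sequences of 24 to 32 nt (0.293%), the 5 other mixed windows 130 (0.402%) and the other rich windows, which include those 5, 1263 (0.315%). The locus is longer than a mixed window and includes stretches of nearly 1 strand. Its central window of 20 kb held 44 of the 50 (0.473%), and the other mixed windows ran singly from 0.168 to 0.750%. A stood at position 10 in 80% of those of the locus (66.3 to 90.0%), in 61.5% of those of the other mixed windows (52.6 to 69.9%) and in 71.0% of those of the rich windows (68.4 to 73.5%). A 10-nt partner was listed for 66% (51.2 to 78.8%), 43.1% (34.4 to 52.0%) and 55.6% (52.8 to 58.3%). The intervals of the locus overlapped those of these sets. In the central window alone A stood at position 10 in 84.1% of 44 (69.9 to 93.4%), and 68.2% had a partner (52.4 to 81.4%). In the other 5 mixed windows, taken singly, these shares ran from 57.9 to 66.7% and from 33.3 to 58.3%. The intervals of the central window lay just above those of the other mixed windows together. None of these differences was tested. Outside the rich windows 1135 sequences were counter to their surroundings, with A at position 10 in 37.4% (34.5 to 40.2%) and a partner in 8.81% (7.23 to 10.6%).

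Marker genes of cell types of the testis were looked up in the whole list as a check of the labelled tissue. Of these, the germ cell genes Sycp3, Sycp1, Dazl, Stra8, Ldhc and Tnp1 matched between 36 and 311 sense sequences each. The Sertoli cell genes Sox9, Wt1 and Rhox5 matched 8, 2 and 0, and the Leydig cell genes Cyp17a1, Hsd3b6 and Cyp11a1 matched 0, 0 and 1. The list holds RNAs bound to Tdrd1 or Mili, so these counts do not measure the cells present. Genes of different length are not comparable in them, and the share of each library in them is unknown.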

How the data were processed

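Small RNAs from 3 immunoprecipitates of mouse testis were analysed from 1 pooled list. The authors deposited each distinct sequence once with its chromosome, start and end, on NCBI mouse build 37 per the file headers (mm9 in the submitters' processing notes), without read numbers, strand or library, so no value is a count of reads. The aligner and allowed mismatches: not given in the sources used here. Replicates and library comparisons were therefore not possible, and each sequence weighs 1.

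Strand was inferred from stretches of 12 nt shared at the same position by overlapping sequences, first where 1 orientation alone had support, then by majority; 79.2% of the list was called. The turning point is the position that leaves fewest sequences on the other strand of their side. Strand calls, overlaps and 3′ to 5′ distances were tested on simulated data. Overlaps used sequences of 24 to 32 nt. Members were matched whole and exactly to GENCODE vM21 transcripts (GRCm38) of chromosome 6. Intervals are exact Clopper-Pearson. Alternatives were each 5′ end once, other sizes, the central window and stretches of 16 nt. Python 3.11.15, NumPy 2.4.6, pandas 2.3.3 and SciPy 1.17.1 were used. Named were genes with 20 or more members, the 5 richest 5′ ends per strand, the 3 richest 10-nt overlaps and the 3 richest bins per strand. The members and lists were chosen with earlier results of these data known, and the analysis of sequences against their arm was chosen after seeing the data.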

Additional observations from a re-analysis of the deposited data

Results flagged for a closer look

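Members shorter than 24 nt, outside the size range used for most measures, numbered 1154, or 6.29% of the locus (5.94 to 6.65%), beside 6.09% in the other rich windows, 1.90% in the whole list and 0.825% outside the rich windows and the locus. They started with U in 65.1% (62.2 to 67.8%), with 68.1% in the minus arm and 64.01% in the plus arm.

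The 20 kb to the right of the locus, outside its rule, held 2540 sequences. Of those with a strand, 99.96% were plus. Their number was 1635 in the first 5 kb, 746 in the next, 114 in the third and 45 in the last.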

How the results depend on the processing

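Of 26 alternative values, 17 were planned and 9 were added later. In all, 13 stayed within the error of the reported value, 13 moved beyond it and 0 reversed. All 13 that moved were among the 17 planned. Most values are shares of 1 list with no direction to reverse. Counting each 5′ end once gave 8171 in place of 18350 members, 67.3% plus strand, 50.2% U, 31.9% A at position 10 and a 10-nt ratio of 2.35. The central 20 kb window alone gave 72.5% plus strand, 57.4% U and a mean length of 26.268 nt. Restricting lengths gave 57.5% U for 24 to 28 nt and a mean of 26.6 nt for 24 to 32 nt. A at position 10 was 36.2% without sequences that start with U. With 3 or more in place of 5 or more 3′ ends 30.98% of 5′ ends qualified, and sense matches alone gave 0.425%. The cause of these moves was not tested. The 9 alternatives for sequences against the arm, chosen after seeing the data, all stayed within the reported intervals. Sequences farther than 1 kb from the turning point and those counter to their surroundings gave the same values. These were 80% A at position 10, 34% first U and 66% with a 10-nt partner, so they are not separate checks. No paired analysis was possible because the list carries no library. Depth is unknown, so a missing partner or 3′ end may be unsequenced.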
